A study of Mus musculus with 8 samples.

Results

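The C/EBP transcription factors are a family of basic leucine zipper proteins that bind DNA as dimers, and 4 of their genes, Cebpa, Cebpb, Cebpd and Cebpg, were described among the 55573 genes counted in each library. The family was chosen by the level of Cebpb, which was seen in earlier work on these data to differ among irradiated libraries. The question put to the other members was whether they follow it. RNA of mouse colon fibroblasts (strain C57BL6/J), labelled as polyA RNA, was sequenced in 8 libraries. The cells were kept on tissue culture plates in Advanced DMEM F12 with FBS, and every library came from fibroblasts treated with medium conditioned by APTKA (not expanded in the labels). The control group, libraries I to IV, was left without irradiation, and the irradiated group, also 4 libraries numbered I to IV, received 3 fractions of 2 Gy. Collection was 72 h after the first fraction. The design text gives 2 groups of 4 independent samples, but the labels do not say whether libraries came from separate animals or cultures. The p-values therefore measure only the spread between these libraries, which may be technical.

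C/EBP proteins form homodimers and heterodimers through a shared leucine zipper and recognise related DNA sites. In fibroblasts and preadipocytes C/EBP-beta and C/EBP-delta are known as early, inducible factors that respond to cytokines, cyclic AMP and hormones and take part in acute phase and adipogenic transcription. C/EBP-alpha is known for terminal differentiation and growth arrest in fat, liver and myeloid cells, whereas C/EBP-gamma lacks a transactivation domain and pairs with other family members and with ATF4. The Cebpb transcript is translated into several protein isoforms from different start codons, which counts per gene cannot separate.

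Total counts ran from 28731227 to 37157216 per library, and levels are given as CPM, the counts of a gene scaled to library size with TMM factors. All 8 fibroblast markers examined passed the filter on low counts. After irradiation edgeR called 0 of them higher and 2 lower, where 2.59% and 4.15% of all genes tested were called. Col1a2, a chain of type I collagen, was at 4330 CPM or higher in every library. The summed CPM of the markers of other cell types stayed low: 0.731 to 1.97 for 7 epithelial, 3.88 to 5.50 for 7 myeloid, 0.189 to 0.453 for 6 granulocyte, 4.01 to 5.40 for 5 endothelial, 0.0349 to 0.298 for 6 adipocyte and 0.0605 to 0.223 for 5 hepatocyte markers. Tyrobp, S100a9, Lep and Ttr had no count in any library, which for each library allows up to 3 counts. Irradiated libraries I and II stood apart from the rest by their mitochondrial rRNA, at 15130 and 15260 CPM of total counts against 4178 to 5934 CPM in the other 6 libraries. The labels name no batch.

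The genes lie at 3 places in the mm10 build. Cebpb (ENSMUSG00000056501) is on chromosome 2 from 167688915 to 167690418 on the plus strand, Cebpd (ENSMUSG00000071637) on chromosome 16 from 15887286 to 15891031 on the plus strand, and Cebpa (ENSMUSG00000034957) on chromosome 7 from 35119293 to 35121928 on the plus strand. Cebpg (ENSMUSG00000056216) is the neighbour of Cebpa, from 35046422 to 35056573 on the minus strand, and 62719 bases separate both genes. Cebpa, Cebpb and Cebpd each have a single exon and no intron, whereas the longest transcript of Cebpg has 2 exons. The longest transcripts held 67.2% G and C in Cebpb, 62.6% in Cebpa, 51.6% in Cebpd and 43.3% in Cebpg.

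The start regions are shown because 3 of the members shared their high libraries and Cebpg did not, and because their base composition differs. The share of all genes tested that have the same high libraries was not counted. RefSeq promoter windows (build GRCm38.p6) were found for 3 of the 4 members, all but Cebpd, and the 250 bases before the annotated start are given 5′ to 3′ on the strand of the gene. Cebpb is at chr2:167688665-167688914 on the plus strand, Cebpa at chr7:35119043-35119292 on the plus strand and Cebpg at chr7:35056567-35056816 on the minus strand. Capitals mark the letters of 5 motifs searched on both strands: CCAAT (the box that gave the family its name), TGACG (the core of a cyclic AMP response element), TATAAA (the core promoter element bound by TBP), GGGCGG (the box bound by Sp1) and TTGCNNCAA (letters similar to a C/EBP site, but not a palindrome).
Cebpb: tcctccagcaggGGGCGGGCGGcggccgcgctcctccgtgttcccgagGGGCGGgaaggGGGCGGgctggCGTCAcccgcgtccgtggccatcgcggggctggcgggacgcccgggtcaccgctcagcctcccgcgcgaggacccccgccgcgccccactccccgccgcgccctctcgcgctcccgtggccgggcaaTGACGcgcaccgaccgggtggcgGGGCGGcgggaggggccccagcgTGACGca
Cebpa: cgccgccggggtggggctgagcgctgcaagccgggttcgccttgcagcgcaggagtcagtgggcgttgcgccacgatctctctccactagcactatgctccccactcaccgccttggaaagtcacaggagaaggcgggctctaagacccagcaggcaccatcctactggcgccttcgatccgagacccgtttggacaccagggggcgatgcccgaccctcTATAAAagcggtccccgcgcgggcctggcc
Cebpg: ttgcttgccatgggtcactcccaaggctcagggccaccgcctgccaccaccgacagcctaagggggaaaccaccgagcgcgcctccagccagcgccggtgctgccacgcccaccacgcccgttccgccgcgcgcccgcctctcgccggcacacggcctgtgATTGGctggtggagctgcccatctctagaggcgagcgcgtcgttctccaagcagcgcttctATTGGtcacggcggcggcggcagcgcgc

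The Cebpb window was 81.6% G and C and held 3 matches of TGACG, at positions -180 (opposite strand), -53 and -7 from the start, a motif present in 17.8% of the 32851 windows of this length in the table. It also held 5 matches of GGGCGG, of which the first pair overlap each other (32.7% of windows). The Cebpa window (66.4% G and C) held 1 match, TATAAA at position -30 (12.4% of windows). The Cebpg window (70.8% G and C) held 2 matches of CCAAT, both on the opposite strand, at positions -89 and -28 (33.8% of windows). TTGCNNCAA, present in 1.74% of windows, did not occur in these letters. It is not the palindromic C/EBP site, for which no search was made. No other motif of the 5 was found in the 3 windows, and a match is only a match of letters.

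Cebpb, the inducible member linked to inflammation and early adipogenesis, was at 46.1, 64.1, 79.5 and 51.9 CPM in non-irradiated libraries I to IV and at 66.6, 80.1, 151 and 183 CPM in irradiated libraries I to IV. Irradiated III and IV were the highest of all libraries, whereas irradiated I and II lay within or just above the non-irradiated range, so the groups overlapped. The means were 60.4 ± 14.8 and 120 ± 55.9 CPM (SD, n = 4 each), with a fitted log2 fold change of 0.99 (SE 0.27). Since these values chose the family, they are a description and carry no test.

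Cebpd, the delta member that is induced early together with Cebpb in adipogenesis and the acute phase, showed the same high libraries. It was at 82.0, 74.4, 86.1 and 67.4 CPM without irradiation and at 67.8, 80.9, 127 and 118 CPM after it. Irradiated III and IV were again above every other library, and irradiated I and II lay inside the non-irradiated range. The means of 77.5 ± 8.27 and 98.7 ± 28.8 CPM (SD, n = 4 each) gave a log2 fold change of 0.35 (SE 0.16), which did not pass (edgeR adjusted p = 0.228).

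Cebpa, the member tied to terminal differentiation, was low and had the same pair on top by a smaller margin. Non-irradiated libraries held 7.64, 6.87, 8.28 and 7.41 CPM and irradiated libraries 7.58, 8.66, 10.1 and 10.1 CPM. Irradiated I fell inside the non-irradiated range and irradiated II just above it. These levels rest on 216 to 368 counts per library, for which counting alone gives an error of 5.21% to 6.80%. The means were 7.55 ± 0.587 and 9.12 ± 1.24 CPM (SD, n = 4 each), with a log2 fold change of 0.27 (SE 0.10, edgeR adjusted p = 0.136).

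Cebpg, the short dimer partner without a transactivation domain, did not have this pattern. It was at 115, 125, 121 and 120 CPM in non-irradiated and at 113, 118, 116 and 118 CPM in irradiated libraries. Irradiated III and IV were neither the highest nor apart from irradiated I and II. The means of 120 ± 4.18 and 116 ± 2.21 CPM (SD, n = 4 each) differed by a log2 fold change of -0.05 (SE 0.04, edgeR adjusted p = 0.499).

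**Figure D1:**
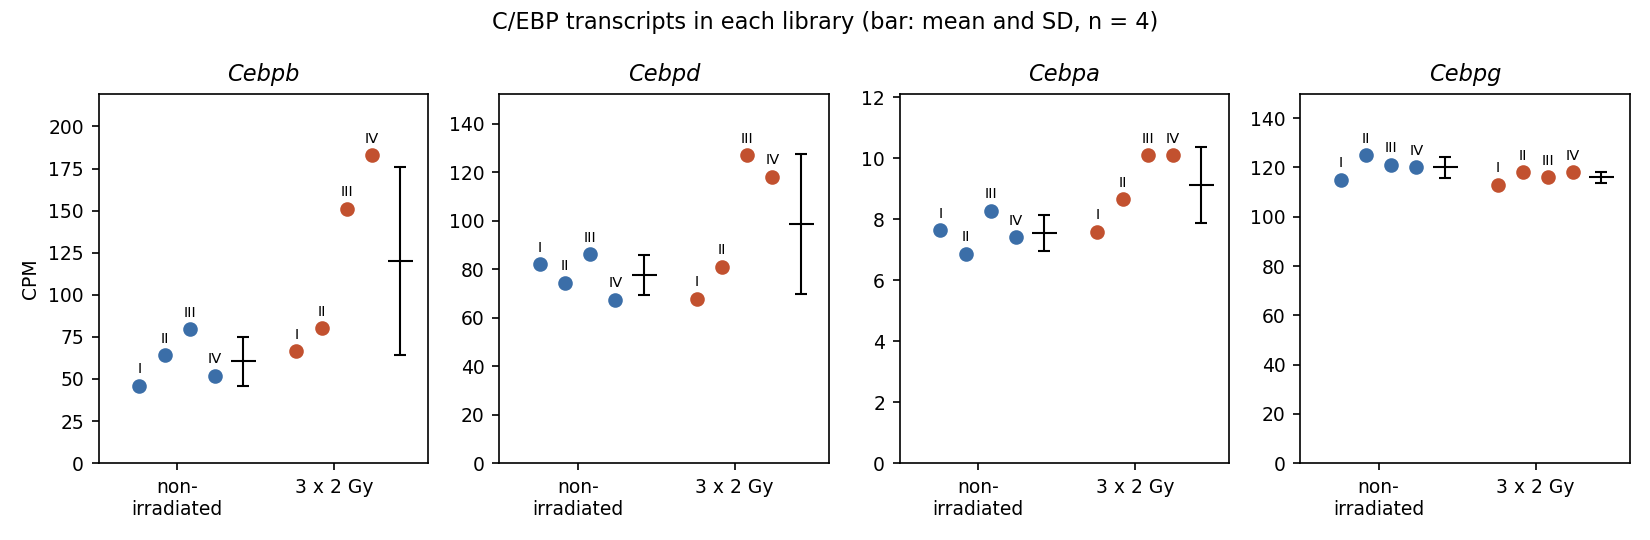
CPM of Cebpb, Cebpd, Cebpa and Cebpg in each library (points, numbered I to IV), with group means and SD (bars, n = 4) and axes that start at 0. Irradiated III and IV are the highest libraries for Cebpb (151 and 183 CPM), Cebpd (127 and 118 CPM) and Cebpa (10.1 CPM each), while Cebpg stays between 113 and 125 CPM in all 8.

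Of the 3 members other than Cebpb, 0 were called at an adjusted p under 0.05 by edgeR, where 2.59% of the 15259 genes tested were called higher and 4.15% lower (6.74% in either direction). By edgeR's unadjusted p, Cebpa (0.0187) and Cebpd (0.0465) were under 0.05. The share of all genes tested under that unadjusted threshold was not counted, so this does not set both members apart. DESeq2 and limma-voom called 0 of the 3 as well. Over all genes DESeq2 called 537 higher and 776 lower, and limma-voom 373 and 614. The CPM of the groups overlapped for all 4 members, and 14.2% of all genes tested had groups that did not overlap. Without irradiated I, the library with the lowest Cebpb of its group, the adjusted p was 0.0488 for Cebpa (log2 fold change 0.35) and 0.0452 for Cebpd (0.49). With both irradiated I and II left out it was 0.0317 for Cebpa (0.42) and 0.00109 for Cebpd (0.66), and with both irradiated III and IV left out the values were 0.10 for Cebpa and -0.06 for Cebpd (adjusted p = 0.755 and 0.845). These libraries were known beforehand to differ in Cebpb, so the lower p-values are not independent evidence. Cebpd also passed in an edgeR fit without the filter on low counts (adjusted p = 2.66e-10), where the SE fell from 0.16 to 0.05 at a log2 fold change of 0.35. In that fit the SE of other widely varying genes fell too, from 0.27 to 0.05 for Cebpb and from 0.22 to 0.06 for Dmrta2. The small p is therefore not read as support for a change of Cebpd.

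**Figure D2:**
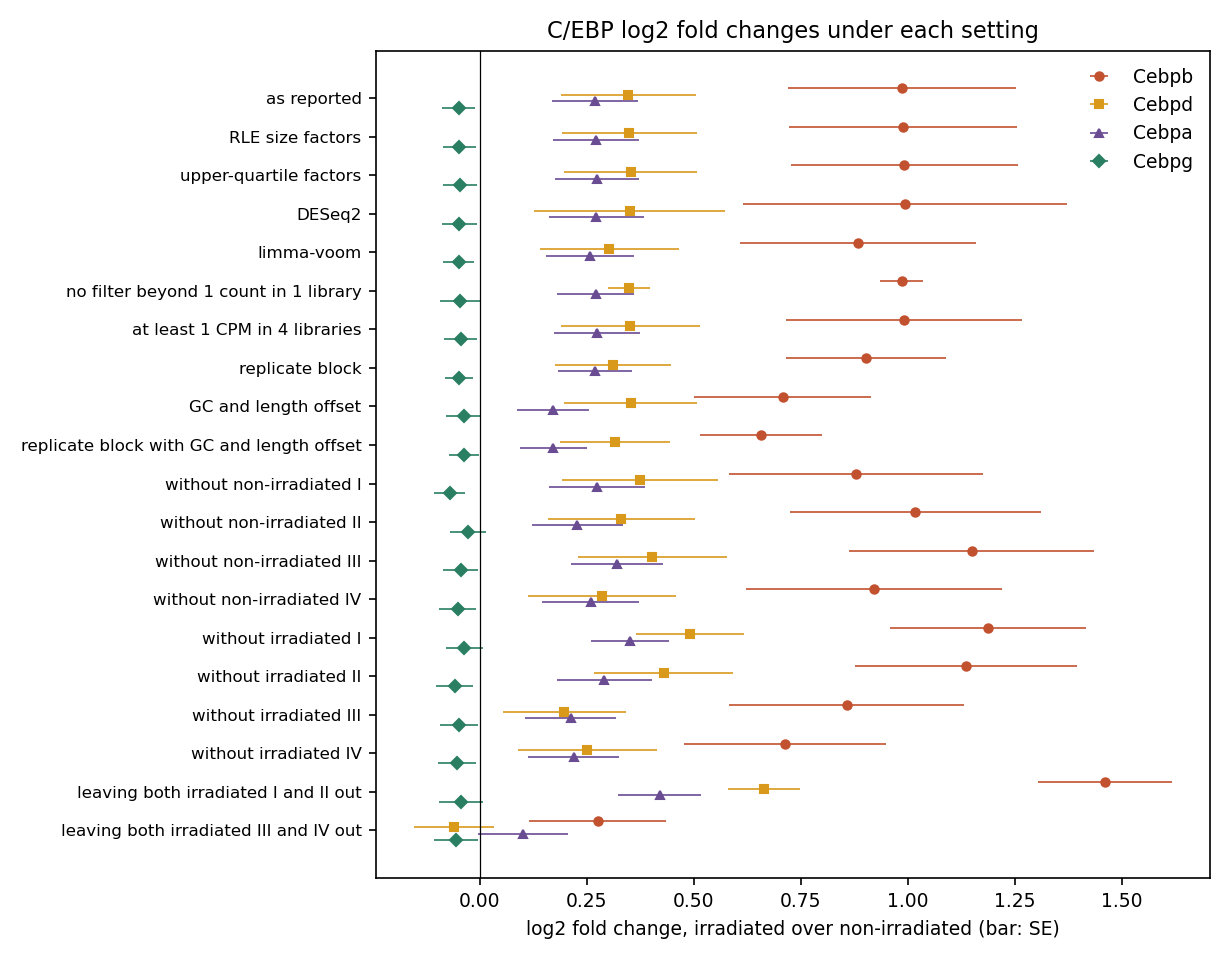
Log2 fold change of irradiated over non-irradiated libraries (x axis, with SE as bars) for the 4 members under each setting (y axis). Cebpg stays between -0.07 and -0.03 throughout, whereas Cebpb runs from 0.28 with both irradiated III and IV left out to 1.46 with both irradiated I and II left out, and Cebpd from -0.06 to 0.66.

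The spread within a group differed between members. Among irradiated libraries the highest level divided by the lowest was 2.75 for Cebpb, 1.88 for Cebpd, 1.34 for Cebpa and 1.04 for Cebpg, against a median of 1.09 over the 10348 tested genes with a mean of at least 5 CPM. A larger ratio than that of Cebpd was found for 0.251% of these genes (26), than that of Cebpa for 2.65% (274) and than that of Cebpg for 87.2% (9022). Cebpb itself, whose spread chose the family, was exceeded by 11 genes (0.106%). Over all 15259 genes tested, whatever their level, larger ratios were found for 1.43% (Cebpb), 6.9% (Cebpd), 23% (Cebpa) and 91.2% (Cebpg). Among non-irradiated libraries the ratio was 1.72 for Cebpb, 1.28 for Cebpd, 1.21 for Cebpa and 1.09 for Cebpg, with a median of 1.13. Of the genes with at least 5 CPM, 0.532%, 8.85%, 20.2% and 72.9% exceeded these ratios. Of all genes tested, 13.8%, 32.3%, 42.6% and 81.2% did.

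The order of libraries was shared in part, and how many of all genes tested share it was not counted. Irradiated libraries fell into the same pairs by a chi-square between libraries, over degrees of freedom. It was 5.46 for I with II and 5.12 for III with IV, against 16 to 27.6 for the other irradiated pairs. In the irradiated group Cebpb and Cebpd both had I as the lowest and II as the next, followed by III and IV in either order, and Cebpa had III and IV level at 10.1 CPM above II and I. In the non-irradiated group library III was the highest for Cebpb (79.5 CPM), Cebpd (86.1 CPM) and Cebpa (8.28 CPM), but the lowest was I for Cebpb, IV for Cebpd and II for Cebpa. On the log2 scale, centred on the mean of the 8 libraries, irradiated III and IV were at 0.90 and 1.18 for Cebpb, 0.57 and 0.46 for Cebpd, 0.29 and 0.29 for Cebpa and -0.03 and -0.01 for Cebpg.

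**Figure D3:**
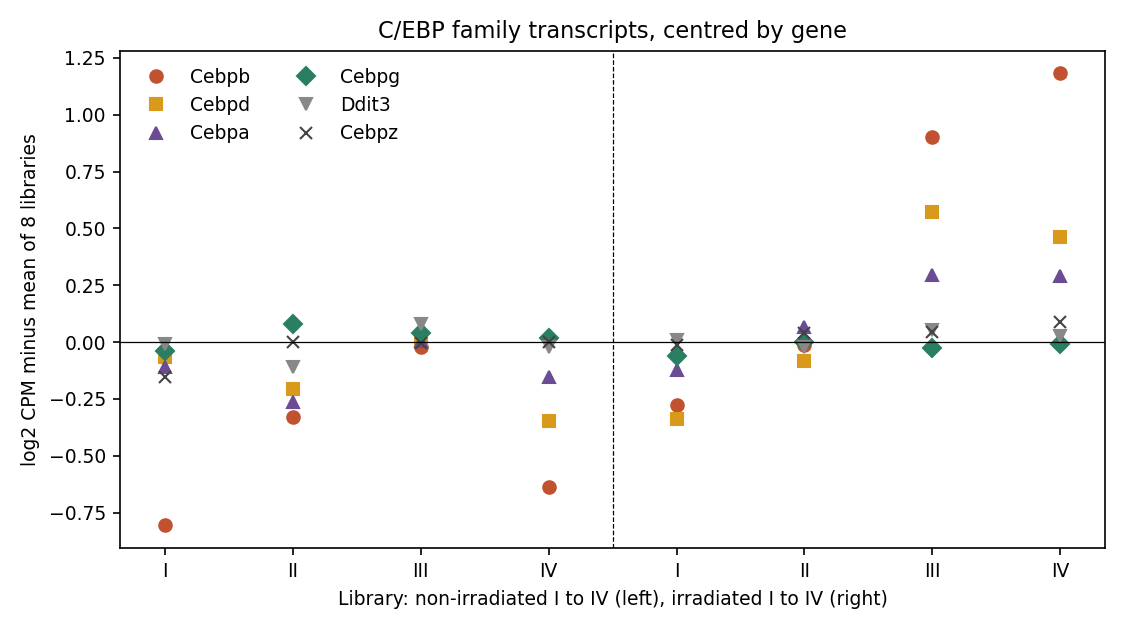
Log2 CPM of each gene minus its mean over the 8 libraries (y axis) by library (x axis, non-irradiated left and irradiated right of the dashed line), for the 4 members and the relatives Ddit3 and Cebpz. In irradiated III and IV Cebpb (0.90 and 1.18), Cebpd (0.57 and 0.46) and Cebpa (0.29 and 0.29) lie above 0, while Cebpg, Ddit3 and Cebpz stay within 0.09 of 0.

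Base composition moved with the high libraries for the members rich in G and C. The 22 tested genes with a transcript GC content within 1 percentage point of Cebpb had a median centred log2 CPM of 0.33 in irradiated III and 0.32 in irradiated IV, against -0.09 and -0.10 in irradiated I and II. For the 178 genes as GC-rich as Cebpa the medians in III and IV were 0.10 and 0.07, and for the 1504 genes with the GC content of Cebpd they were 0.01 and -0.02. With each library's trend on GC content and length removed, irradiated I to IV were at 69.7, 77.9, 125 and 155 CPM for Cebpb, 67.5, 81.4, 128 and 119 CPM for Cebpd and 7.64, 8.75, 9.31 and 9.47 CPM for Cebpa. The ratio of the highest to the lowest irradiated library was then 2.23 for Cebpb, 1.89 for Cebpd and 1.24 for Cebpa. Irradiated III and IV were still the highest libraries for all 3 genes, and for Cebpd the ratio before was 1.88. For Cebpa their margin over II was small beside a counting error of 5.21% to 5.91% in these libraries. The trend removed from Cebpb in III and IV, 0.271 and 0.239, was smaller than the medians of its 22 genes of like GC content. The part of base composition in the split was not tested. In the fit with the same correction the log2 fold change between groups was 0.17 for Cebpa, 0.71 for Cebpb, 0.35 for Cebpd and -0.04 for Cebpg.

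**Figure D4:**
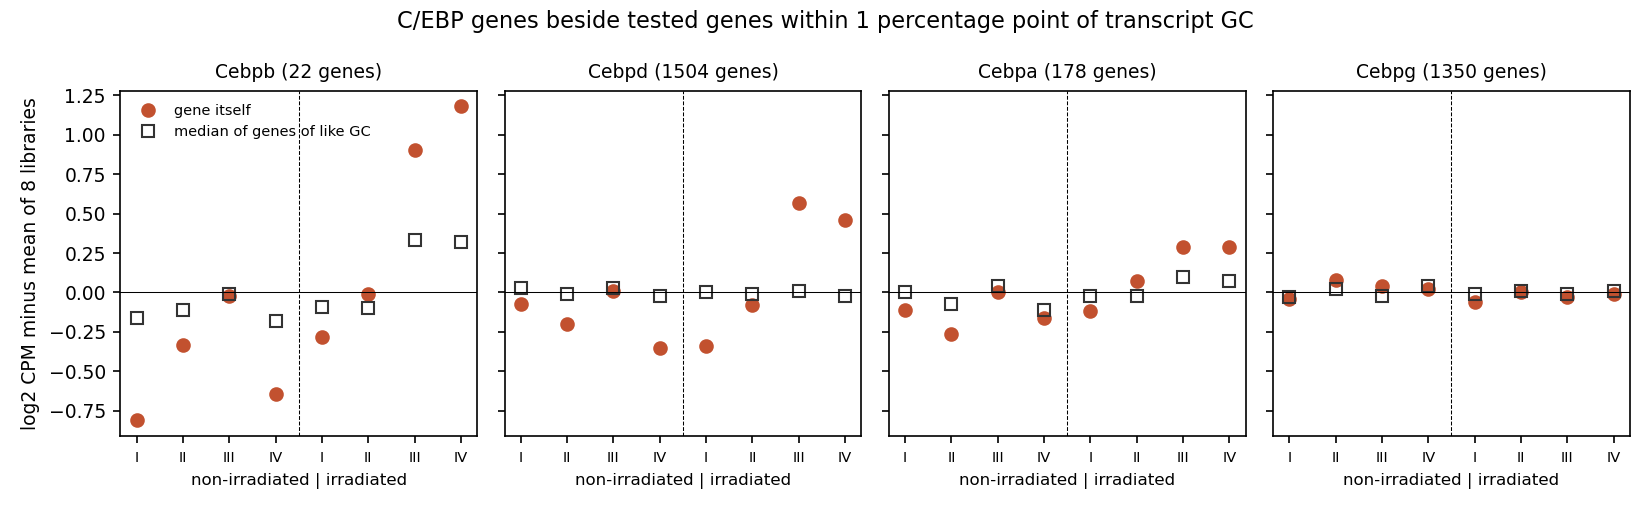
Centred log2 CPM of each member (filled points) and the median of the tested genes within 1 percentage point of its transcript GC content (open squares) by library. In irradiated III and IV the squares rise to 0.33 and 0.32 for the GC range of Cebpb, below the gene itself at 0.90 and 1.18, and lie at 0.01 and -0.02 for that of Cebpd.

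The mitochondrial rRNA that set irradiated I and II apart (15130 and 15260 CPM of total counts) was low in the non-irradiated libraries (4178 to 5915 CPM), whose Cebpb and Cebpd were low too. Its part in the split among irradiated libraries was not tested. In bulk RNA, fewer cells that express a gene and less RNA per cell cannot be told apart.

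Other annotated genes overlap these loci, those at Cebpa, Cebpb and Cebpd on the opposite strand and those at Cebpg on either strand, and the strand setting of the counting is not given in the sources used here. Tmem189, whose exons overlap Cebpb, was at 25.3 to 27.4 CPM in all 8 libraries, and Spidr, which overlaps Cebpd, at 46.5 to 52.9 CPM. Neither was higher in irradiated III and IV (26.8 and 26.2 CPM, and 47.4 and 47.2 CPM). The predicted gene Gm45091, which overlaps Cebpa, did not exceed 0.304 CPM in any library, and Gm44836, Gm45094 and Gm45095, which overlap Cebpg, did not exceed 0.996 CPM.

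Levels of different genes were compared per kilobase of exon. Without irradiation Cebpb stood highest at 40.2 ± 9.81 CPM per kilobase, followed by Cebpg at 21.4 ± 0.744, Cebpd at 20.7 ± 2.21 and Cebpa at 2.86 ± 0.223 (SD, n = 4). Cebpg and Cebpd did not differ beyond their spread, while Cebpa was far below both. After irradiation the order was Cebpb (79.9 ± 37.2), Cebpd (26.3 ± 7.68), Cebpg (20.7 ± 0.394) and Cebpa (3.46 ± 0.470), and the range of Cebpd (18.1 to 34.0) included that of Cebpg (20.2 to 21). Cebpb supplied 40.4% to 52.5% of the summed CPM per kilobase of the 4 genes in non-irradiated libraries, 51.9% and 53.7% in irradiated I and II and 63.1% and 68.4% in irradiated III and IV. Cebpg fell in share over the same libraries, from 21.5% to 27.8% without irradiation to 13.0% and 11.7% in irradiated III and IV, while its own level did not follow. These shares are a description, since Cebpb, whose values chose the family, is part of each sum. A member that stays level must fall in share where that sum is high.

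Of the 3 relatives, Cebpe, the granulocyte member, had 1 count over all libraries and gives no pattern. Ddit3 encodes CHOP, a stress-induced C/EBP partner, and was at 95.3 to 109 CPM without and 101 to 107 CPM with irradiation (log2 fold change 0.03, SE 0.04, edgeR adjusted p = 0.754). Its exons overlap those of Mars and Gm4189 on the opposite strand and those of another identifier, also named Ddit3, on the same strand. Cebpz, which shares the name but has no leucine zipper of the family, was at 134 to 150 and 148 to 159 CPM (0.08, SE 0.04, edgeR adjusted p = 0.322). It overlaps Cebpzos on the opposite strand. Of Ddit3 and Cebpz, 0 were called by edgeR, DESeq2 or limma-voom, where edgeR called 6.74% of all genes tested. By edgeR 0 had an unadjusted p under 0.05, a share not counted over all genes. Cebpz too had irradiated III and IV as its highest libraries, at 154 and 159 CPM, but the ratio of its highest to its lowest irradiated library was 1.07, and that of Ddit3 was 1.06.

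Among 23 regulators and partners of C/EBP proteins, all tested, edgeR called 3 higher and 2 lower, where 2.59% and 4.15% of all genes tested were called. Their log2 fold changes had a median of -0.02 against 0.00 over all genes tested. Klf4, a zinc finger factor that acts upstream of Cebpb in preadipocytes, rose from 61.2 ± 3.71 to 73.6 ± 4.97 CPM (0.27, SE 0.06, edgeR adjusted p = 0.0111; SD, n = 4 each). Its irradiated libraries held 71.2, 67.7, 77.7 and 77.7 CPM, all above the non-irradiated 57.2 to 66.1 CPM. Trib3, a pseudokinase of the family that targets C/EBP proteins for degradation, fell from 18.0 ± 1.95 to 14.1 ± 0.538 CPM (-0.36, SE 0.08, edgeR adjusted p = 0.0125). No single library took away either call. With both irradiated III and IV left out edgeR gave adjusted p = 0.194 for Klf4 and 0.0657 for Trib3, and with both I and II left out 0.105 for Trib3.

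Fbxw7, a ubiquitin ligase subunit with C/EBP-alpha and C/EBP-delta among its substrates, rose from 48.0 ± 2.47 to 54.6 ± 1.68 CPM (0.18, edgeR adjusted p = 0.0244; SD, n = 4 each). Atf3, an inducible leucine zipper repressor, rose from 11.7 ± 1.36 to 14.8 ± 1.31 CPM (0.35, edgeR adjusted p = 0.0336), and Atf5, a related activator, fell from 68.3 ± 2.34 to 58.6 ± 5.31 CPM (-0.22, edgeR adjusted p = 0.0378). These 3 calls were less firm. Leaving out irradiated I, III or IV ended that of Fbxw7 (adjusted p up to 0.0843). Leaving out irradiated III or IV, or I or III of the non-irradiated group, ended that of Atf3 (up to 0.102). Leaving out irradiated III or IV, or I, III or IV of the non-irradiated group, ended that of Atf5 (up to 0.0909). The abundant partners Atf4 (497 ± 10.8 and 491 ± 17.9 CPM, edgeR adjusted p = 0.822) and Stat3, which transmits interleukin 6 signals to Cebpb and Cebpd (373 ± 16.2 and 365 ± 9.60 CPM, 0.696), did not pass. In none of the 23 was the spread of irradiated libraries as wide as that of Cebpd, and the widest ratio was 1.51 for Batf3, a gene under 1 CPM. Only 0.251% of genes with at least 5 CPM exceeded Cebpd, so this does not set the 23 apart.

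Acute phase and inflammatory genes that C/EBP-beta and C/EBP-delta are known to bind had a median spread among irradiated libraries near that of all genes tested. Of 25 listed genes 19 were tested, 1 was called higher and 1 lower (2.59% and 4.15% over all genes tested), and the median log2 fold change was 0.01. The median ratio of the highest to the lowest irradiated library was 1.13, against 1.13 over all 15259 genes tested and 1.09 over those with at least 5 CPM. The widest ratio among the 19 was 1.39, where Cebpd had 1.88. Only 0.251% of genes with at least 5 CPM exceeded Cebpd, so a narrower spread does not set these genes apart. Saa3, a serum amyloid gene of fibroblasts and macrophages, was at 437, 466, 446 and 413 CPM in irradiated I to IV against 390 to 442 CPM without irradiation (log2 fold change 0.10, SE 0.05, edgeR adjusted p = 0.225). The complement gene C3 was at 214, 221, 214 and 202 CPM against 220 to 228 CPM (-0.06, edgeR adjusted p = 0.33). In both genes irradiated III and IV were not the high pair.

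Ptgs2, the inducible cyclooxygenase, was the gene of this list called higher, with 1760, 1840, 1690 and 1680 CPM in irradiated I to IV against 1310 to 1620 CPM without irradiation (log2 fold change 0.30, SE 0.06, edgeR adjusted p = 0.00995). Its irradiated libraries were thus higher in I and II than in III and IV, but their ratio of highest to lowest was only 1.10. The median over genes with at least 5 CPM was 1.09. With both I and II left out the log2 fold change was 0.25 (edgeR adjusted p = 0.105). Over all genes 301 were then called higher, against 395 with all libraries. Ccl2, a monocyte chemokine, was called lower at 588 ± 42.8 and 511 ± 34.4 CPM (-0.20, edgeR adjusted p = 0.0498; SD, n = 4 each). That call was lost with RLE factors (0.051), under the GC and length correction (0.0991) and with irradiated I, III or IV, or I or III of the non-irradiated group, left out (up to 0.156). Nos2, inducible nitric oxide synthase, was at 5.40 ± 0.198 and 4.42 ± 0.262 CPM (-0.29) and did not pass (edgeR adjusted p = 0.057).

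Genes of the adipogenic programme were largely low. Of 22 listed genes 11 passed the filter on low counts and 1 was called, lower, against 4.15% called lower over all genes tested. Their median ratio of the highest to the lowest irradiated library was 1.21, and the widest, 2.46, was that of Fabp4, a fatty acid binding protein gene near 1 CPM (0.470 to 1.16). Adipoq and Lep, hormones of mature fat cells, were at most 0.0812 CPM and without a count, respectively. Srebf1, a lipogenic factor, fell by 0.18 on the log2 scale, at 158 ± 9.95 and 139 ± 6.21 CPM (SE 0.05, edgeR adjusted p = 0.0445; SD, n = 4 each). Leaving out non-irradiated I or III, or irradiated II, III or IV, ended this call (up to 0.141). Ebf1, a factor of preadipocyte commitment (39.5 ± 1.17 and 35.8 ± 0.941 CPM, edgeR adjusted p = 0.0548), and the lipid droplet gene Plin2 (244 ± 24.6 and 267 ± 5.98 CPM, 0.201) did not pass. Ebf1 passed without non-irradiated I (0.0451) and Plin2 without non-irradiated III (0.0171). Zfp467 (9.78 ± 0.872 and 10.3 ± 0.672 CPM, 0.672) and Lpl, lipoprotein lipase (9.46 ± 0.512 and 9.01 ± 0.0976 CPM, 0.586), did not pass.

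Amino acid and stress genes are controlled by ATF4 together with C/EBP partners such as C/EBP-gamma. Of 17 such genes, all tested, edgeR placed 8 among the lower and 2 among the higher genes, where the shares over all genes tested were 4.15% and 2.59%. The median of their log2 fold changes was -0.15. Cth, a gene of cysteine synthesis, fell from 17.4 ± 0.931 to 11.9 ± 0.299 CPM (-0.55, SE 0.06, edgeR adjusted p = 0.000106; SD, n = 4 each). Psat1, of serine synthesis, fell from 85.9 ± 3.95 to 62.2 ± 2.35 CPM (-0.47, SE 0.05, edgeR adjusted p = 4.19e-05). Further falls were those of Phgdh (-0.43), Slc7a11 (-0.41), Mthfd2 (-0.35), Slc7a5 (-0.27), Shmt2 (-0.26) and Asns (-0.24), with edgeR adjusted p from 0.00152 for Mthfd2 to 0.0334 for Slc7a11. The call of Slc7a11, the cystine transporter, did not hold with any irradiated library or non-irradiated I left out (up to 0.0923), in DESeq2 (0.0536) or under the GC and length correction (0.0763). With both irradiated I and II left out 3 of these genes were called lower. Over all genes 295 were then called lower, against 634 with all libraries.

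Sesn2, a sestrin that is also a p53 target, rose by 0.29 on the log2 scale, at 133 ± 2.96 and 162 ± 8.32 CPM (SE 0.04, edgeR adjusted p = 0.000768; SD, n = 4 each). Ddit4, an inhibitor of mTORC1 signalling, rose from 58.7 ± 2.44 to 66.4 ± 3.15 CPM (0.18, edgeR adjusted p = 0.0314), which did not hold with irradiated I or III, or II or IV of the non-irradiated group, left out (up to 0.100) or under the GC and length correction (0.0549). The abundant genes Aars (443 ± 23.8 and 421 ± 17.6 CPM, edgeR adjusted p = 0.373) and Txnrd1 (459 ± 36.2 and 441 ± 13.9 CPM, 0.545) did not pass. Across the 17 genes the widest ratio among irradiated libraries was 1.25, for Phgdh.

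**Figure D5:**
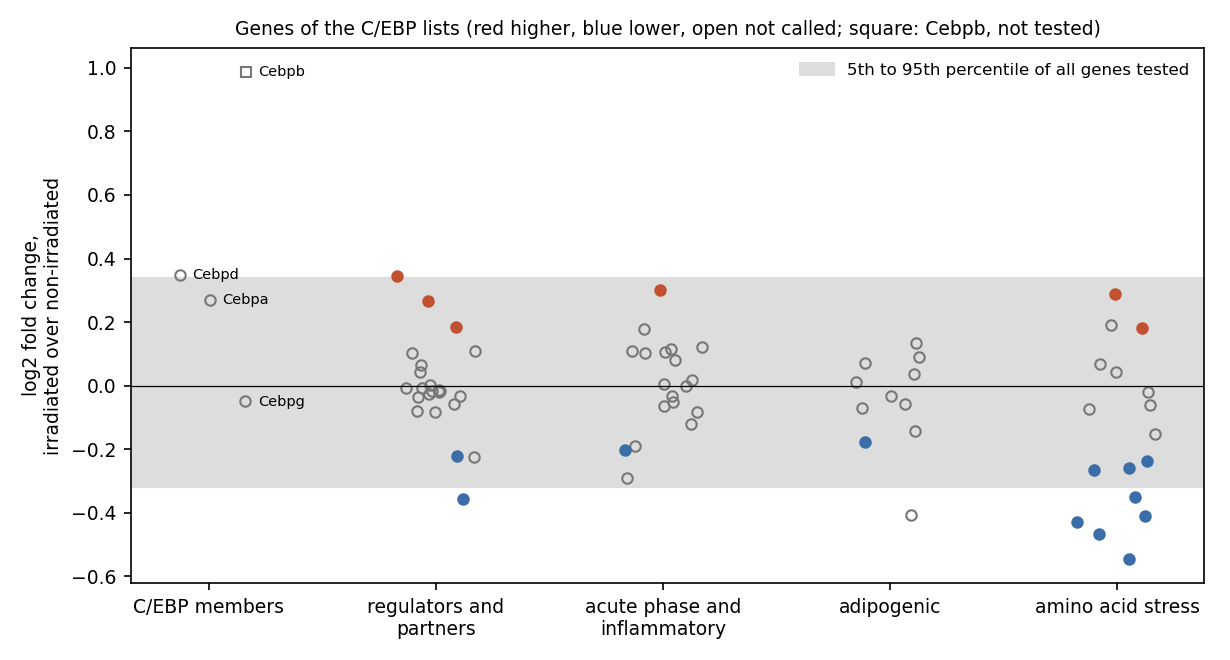
Log2 fold change of irradiated over non-irradiated libraries (y axis) for each tested gene of the C/EBP members and of 4 lists (x axis, points spread sideways for legibility), with the range from the 5th to the 95th percentile of all genes tested (-0.32 to 0.34) in grey. Cebpb (square, 0.99, not tested) lies above every other point, and the amino acid and stress list holds 8 of the genes called lower.

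The genes whose level ran most like each member were found by the root mean square difference of centred log2 CPM over the 8 libraries, among 9932 other protein-coding genes with a mean of at least 5 CPM and an established symbol. They were picked for this likeness, so their values are a description. For Cebpb these were Nr2f6 (difference 0.193), Gnas (0.213) and Dmrta2 (0.216), where the median gene differed by 0.662. Nr2f6, an orphan nuclear receptor, was at 13.7, 16.6, 18.9 and 15 CPM without irradiation and at 16.4, 20.7, 35.7 and 34.4 CPM with it. Its highest libraries were irradiated III and IV, as for Cebpb, and its longest transcript was 67.3% G and C. Gnas, the stimulatory G protein alpha subunit locus, was at 8.35, 10.3, 19.8 and 19.5 CPM in irradiated I to IV, and Dmrta2 at 18.7, 22.6, 41.6 and 40.6 CPM.

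For Cebpd the nearest genes were Fam171a2 (difference 0.0887), Sox4 (0.103) and H2afx (0.108), with a median of 0.329. Sox4, a transcription factor gene with 1 exon, was at 153, 166, 225 and 227 CPM in irradiated I to IV and at 137 to 163 CPM without irradiation. For Cebpa they were Zfp622 (0.0532), Emc6 (0.0539) and Zfp579 (0.0561), with a median of 0.205, and Zfp622 was at 118, 132, 169 and 161 CPM in irradiated I to IV against 113 to 129 CPM. All of the genes nearest to Cebpb, Cebpd and Cebpa had irradiated III and IV as their highest libraries. For Cebpg, which hardly varied, they were Hikeshi (0.0179), Pdgfra (0.0187) and Psmc6 (0.0190), and Pdgfra, a receptor that marks fibroblasts, stayed between 931 and 1020 CPM in all libraries.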

How the data were processed

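The authors deposited unnormalized read counts per Ensembl gene, 1 file per library. The submitters' processing notes name bcl2fastq (2.20.0.422), the aligner STAR (2.5.2a), the counter featureCounts (1.5.0-p1) and build mm10. Which annotation release and strand setting were used, and how reads with several matches were treated, is not given in the sources used here. Symbols, coordinates and exons came from GENCODE M21 (GRCm38), which matched 55480 of 55573 identifiers; a symbol with more than 1 identifier was taken at the one with most counts. The 93 unmatched identifiers held 0.000431% of the counts.

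Counts were fitted in R 4.3.3 with edgeR 4.0.16 (quasi-likelihood, group as sole term, TMM factors, filterByExpr with a minimum count of 10 and total of 15). This kept 15259 genes, over which p-values were adjusted by Benjamini-Hochberg and called under 0.05. The SE is the fold change divided by the square root of F. DESeq2 1.42.0, limma-voom (limma 3.58.1), other factors, filters, a threshold of 0.01, the replicate number, a GC and length offset (loess, span 0.5, values for 15249 genes) and left-out libraries were alternatives. Centred values used log2 CPM with a prior count of 2. On simulated counts of 15084 genes the fit recovered 70.8% of genes changed 1.3-fold and 93.9% of those changed 2-fold. The simulated spread followed the trend with level over all genes. These shares therefore do not apply to genes that vary more, such as Cebpb and Cebpd. Within a group, any pair of libraries had a chi-square over degrees of freedom of 5.12 or more, so none was counted as a copy. It was 5.46 for irradiated I with II and 5.12 for III with IV, against 16 to 27.6 for the other irradiated pairs. Pairs of non-irradiated libraries had 5.29 to 13.9. A count of 0 allows up to 3 counts (counting error only).

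The members, lists and settings were chosen with earlier results of these data known. Library levels with the GC and length trend removed were added after seeing the data. Named genes were the members and relatives, from each of 4 lists the 3 with the smallest p, the 2 further most abundant and every called gene, and the 3 genes most like each member; names given by clone or as predicted genes were left out of the last. Batf3, Adipoq, Lep, Fabp4, marker genes and overlapping genes were named after their values were seen.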

Additional observations from a re-analysis of the deposited data

Results flagged for a closer look

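Among the 94 groups of 4 libraries examined for the named genes, 2 held a library far from the other 3 by Dixon's criterion, where chance flags about 1 in 20. Cebpz was at 134 CPM in non-irradiated I and at 149 CPM or more in the other 3 non-irradiated libraries. Hikeshi, named for its likeness to Cebpg, was at 26.3 CPM in irradiated I and at 27.5 CPM or more in the other 3. Cebpb, Cebpd and Cebpa did not meet it, their irradiated libraries falling into pairs.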

How the results depend on the processing

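Depth limits Cebpa, with a counting error of 5.21% to 6.80% per library, and the fat cell genes that did not pass the filter. The directions of Cebpa, Cebpb and Cebpg were kept under all settings run, and that of Cebpd under all but one. With both irradiated III and IV left out Cebpd had a log2 fold change of -0.0604 and Cebpb 0.28, and among the other named genes Fam171a2 and H2afx turned to -0.0013 and -0.11. Atf4 turned to 0.0155 with both irradiated I and II left out. Cebpa passed there (0.42), as did Cebpd (0.66). The libraries left out there had the lower Cebpb of their group, the values that chose the family, so this is not independent evidence. Cebpd also passed without the low-count filter (0.35), where the SE of other widely varying genes fell as well. The cause was not tested.

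Over all genes, 395 were called higher and 634 lower. The counts were 648 higher without the filter, 140 and 296 at a threshold of 0.01, 295 lower with both irradiated I and II left out, and 125 and 267 with both irradiated III and IV left out. Leaving 1 library out gave 221 to 402 higher and 415 to 611 lower genes, with 257 higher when non-irradiated I was left out, 234 for irradiated III and 221 for irradiated IV, for which 415 were lower. There Cebpa ran from 0.21 to 0.35, Cebpb from 0.71 to 1.19 and Cebpd from 0.20 to 0.49. With the GC and length offset Cebpa fell to 0.17 (edgeR adjusted p = 0.264) and Cebpb to 0.71, and with the replicate block added they had 0.17 and 0.66. Of the lists, regulators ran from 1 to 3 higher and 1 to 2 lower, acute phase genes from 0 to 2 lower, adipogenic genes from 0 to 1 higher and 0 to 1 lower, and amino acid genes from 1 to 2 higher and 7 to 9 lower.

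Among acute phase genes, those called lower numbered 0 with RLE factors and 2 with upper-quartile factors, DESeq2, no filter, 1 CPM in 4 libraries, the replicate block and the block with the GC offset; 2 were higher without the filter. Adipogenic genes numbered 1 higher without the filter and 2 lower under the replicate block, and amino acid genes 1 higher with the GC and length offset. At 0.01 regulators numbered 0 in both directions, acute phase genes 0 lower, adipogenic genes 0 lower and amino acid genes 1 higher and 5 lower. With both irradiated I and II left out the counts were 1 regulator lower, 0 acute phase genes in both directions, 0 adipogenic genes lower and 1 amino acid gene higher and 3 lower. With both III and IV left out they were 0 regulators in both directions, 0 acute phase genes lower, 0 adipogenic genes lower and 1 amino acid gene higher.

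Of 860 values of the 43 other named genes under alternatives, 738 kept direction and side of the threshold, 89 lost a call, 30 gained one and 3 turned. Same-numbered libraries did not deviate together in every pair (correlations of 0.03, -0.03, 0.28 and 0.15), and not every library correlated best with its own number, so the labels' numbers are not taken to pair them. With the replicate block 550 genes were higher and 802 lower, Cebpa had 0.27, Cebpd 0.31 and Cebpg -0.05, none of them called, and Cebpb 0.90.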
